A study of Homo sapiens with 6 samples.

Results

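RBM3 and its closest relatives among RNA-binding proteins were examined in T24 cells after silencing of RBM3. The set was chosen by gene name and holds 4 genes, RBM3, CIRBP, RBMX and RBMXL1, of the 63677 identifiers in the count table. All 4 had a row in the table, 3 had counts above 0, and the same 3 passed the filter on low counts and were tested among 15099 genes. The data bear on whether the siRNA against RBM3 also lowered genes of similar sequence, and on whether CIRBP, the other cold-inducible member, was higher where RBM3 was lower. T24 is a single cell line from a bladder carcinoma, so the libraries show how these genes behaved in that line only. The siRBM3 group received a pool of 2 siRNAs against RBM3 at 25 nM for 4.5 h, and the control group received a non-targeting siRNA under the same conditions. The same lipid carrier was used in both groups, and the cells recovered overnight before RNA was isolated. Polyadenylated RNA was sequenced from 3 samples a group, with replicate numbers 1, 3 and 5 in control and 3, 4 and 5 in siRBM3. Nothing in the labels says that the samples came from separate cultures, so the p-values measure only the spread between these samples.

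RBM3 and CIRBP are small RNA-binding proteins with 1 RNA recognition motif (RRM) at the N-terminus, followed by a tail rich in arginine and glycine. Both are known as cold-inducible genes, whose mRNA and protein accumulate when cells are cooled by a few degrees and which bind mRNAs and influence their stability and translation. RBMX, also called hnRNP G, has a closely related RRM and is a nuclear protein that binds nascent transcripts and takes part in splicing. RBMXL1 is a copy of RBMX that arose by retrotransposition, and its coding sequence lies within a single exon.

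The sequences of the RRM are given first, because the similarity between the target and its relatives decides which mRNAs an siRNA against RBM3 could pair with along its whole length. On GRCh37, RBM3 (ENSG00000102317) lies on the plus strand of chromosome X from 48432837 to 48439550. CIRBP (ENSG00000099622) lies on the plus strand of chromosome 19 from 1259383 to 1274879. RBMX (ENSG00000147274) lies on the minus strand of chromosome X from 135930163 to 135962923. RBMXL1 (ENSG00000213516) lies on the minus strand of chromosome 1 from 89445139 to 89458643. The first 86 codons of RBM3 and CIRBP, which hold the RRM, align without a gap, and capitals mark the bases at which they differ. They were read 5′ to 3′ from the GENCODE 44 transcripts on GRCh37, and lie in exons 2 to 4 of each gene, chrX:48433569-48434749 for RBM3 and chr19:1270933-1271375 for CIRBP, introns included.
RBM3: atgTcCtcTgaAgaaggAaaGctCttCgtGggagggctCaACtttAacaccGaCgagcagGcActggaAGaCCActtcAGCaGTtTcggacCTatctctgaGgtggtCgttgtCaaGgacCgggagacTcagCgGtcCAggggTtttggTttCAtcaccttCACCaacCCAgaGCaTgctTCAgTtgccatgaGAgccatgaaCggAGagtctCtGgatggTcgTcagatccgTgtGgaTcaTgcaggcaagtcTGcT
CIRBP: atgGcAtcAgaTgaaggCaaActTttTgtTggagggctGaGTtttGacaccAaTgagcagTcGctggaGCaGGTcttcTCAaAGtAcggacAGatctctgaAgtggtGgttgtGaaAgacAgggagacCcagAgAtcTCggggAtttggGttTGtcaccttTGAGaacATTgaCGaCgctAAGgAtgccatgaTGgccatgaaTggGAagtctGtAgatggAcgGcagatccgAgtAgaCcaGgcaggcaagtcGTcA

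RBM3 and CIRBP differed at 74 of these 258 bases, so that 71.3% of the bases were identical, while 63 of the 86 encoded residues were identical. The longest stretch of identical bases in the window was 11 bases. RBMX and RBMXL1 differed at only 2 of the 258 bases of their own first 86 codons, and 84 residues were identical. The most conserved part of an RRM is RNP1, a short motif that contacts the RNA. It is encoded by the following 24 bases, where capitals mark the differences from RBM3, at residues 47 to 54 of RBM3 and CIRBP and 49 to 56 of RBMX and RBMXL1. These bases lie in exon 3 of each gene, at chrX:48433984-48434007 (plus strand), chr19:1271174-1271197 (plus strand), chrX:135961224-135961247 (minus strand) and chr1:89449342-89449365 (minus strand) of GRCh37.
RBM3: aggggttttggtttcatcaccttc
CIRBP: CggggAtttggGttTGtcaccttT
RBMX: agAggAtttgCtttTGtcaccttT
RBMXL1: agAggAtttgCtttTGtcaccttT

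Even in RNP1 each relative differed from RBM3 at 6 of 24 bases. Over whole mRNAs, the longest stretch that RBM3 shared was 15 bases with CIRBP and 14 bases with RBMX and with RBMXL1. The paired part of an siRNA is usually 19 bases long, and of the 4277 distinct words of 19 bases in the RBM3 mRNA, 0 were found in the mRNA of CIRBP, RBMX or RBMXL1. Of the 453 words of 19 bases in the RBM3 coding sequence, at least 1 was found in the principal transcript of 1 other gene among 55063 searched. That gene, ENSG00000236741, had 0 counts in all 6 libraries. Over the whole RBM3 mRNA, which includes long untranslated parts, such words were far from rare, since 6904 other genes held at least 1. Of the 2946 of these that were tested, 237 (8.04%) were higher and 179 (6.08%) lower in siRBM3 at an unadjusted p under 0.05, against 6.56% and 6.58% of all tested genes. The sequences of the siRNAs in the pool were not used here, so which words they cover was not examined. RBMX and RBMXL1 stood apart from this pattern, since they shared 1079 of the 1994 words of RBMX. Their longest common stretch, 152 bases of coding sequence that include RNP1, is shown in lower case with no base marked, because the copies were identical over it.
RBMX and RBMXL1: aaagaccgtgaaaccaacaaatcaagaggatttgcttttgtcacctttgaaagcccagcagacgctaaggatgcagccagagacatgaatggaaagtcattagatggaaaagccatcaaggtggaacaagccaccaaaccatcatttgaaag

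A search of the RBM3 protein against 19431 human proteins, 1 per gene, with blastp placed CIRBP first, with 57.1% identity over 170 aligned residues and a bit score of 144. RBMXL2, which was not in the set of 4, followed with a bit score of 103. RBMXL1 and RBMX had bit scores of 99.8 and 99.0, each with 54.9% identity over 82 residues. RBMXL2 is another retrocopy of RBMX, known from the testis, and it had 14 counts over the 6 libraries, too few to be tested.

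The silenced gene was compared first. Single libraries are given in the order of replicates 1, 3 and 5 for control and 3, 4 and 5 for siRBM3. RBM3 had 6531, 9610 and 7985 counts in the control libraries against 2221, 2280 and 1446 counts in the siRBM3 libraries. After scaling by TMM factors and library size, these were 225.1, 367.6 and 300.7 CPM (counts relative to the scaled library size) in control and 54.1, 90.1 and 58.4 CPM in siRBM3. The groups did not overlap, and control replicate 1 and siRBM3 replicate 4 were the nearest to each other. The control mean was 298 ± 71.3 CPM (SD, n = 3), and siRBM3 cells stood at 67.5 ± 19.6 CPM (SD, n = 3), which is 22.7% of the control mean. The log2 fold change was -2.14 (standard error 0.24, 95% interval -2.70 to -1.58), a level 4.41-fold lower, with bounds of 2.99-fold and 6.51-fold. In the edgeR quasi-likelihood test the unadjusted p was 2.35e-05 and the FDR 0.0822. To be called, a gene had to differ by 1.5-fold or more with an FDR under 0.01, so RBM3 was not called, and this test called 0% of the 15099 genes. The share of genes with an unadjusted p under 0.05 in it was 6.58% lower and 6.56% higher in siRBM3. DESeq2 gave the same fold change with an FDR of 3.87e-14, the smallest of all genes, and called RBM3 among 159 genes, or 1.22% of the 13068 with an adjusted p. Non-overlap alone was common, since 9.93% of tested genes had all siRBM3 libraries below all control libraries. Polyadenylated RNA from whole cultures was sequenced, so a lower RBM3 mRNA in each cell and a smaller share of cells with RBM3 mRNA cannot be told apart.

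**Figure D1:**
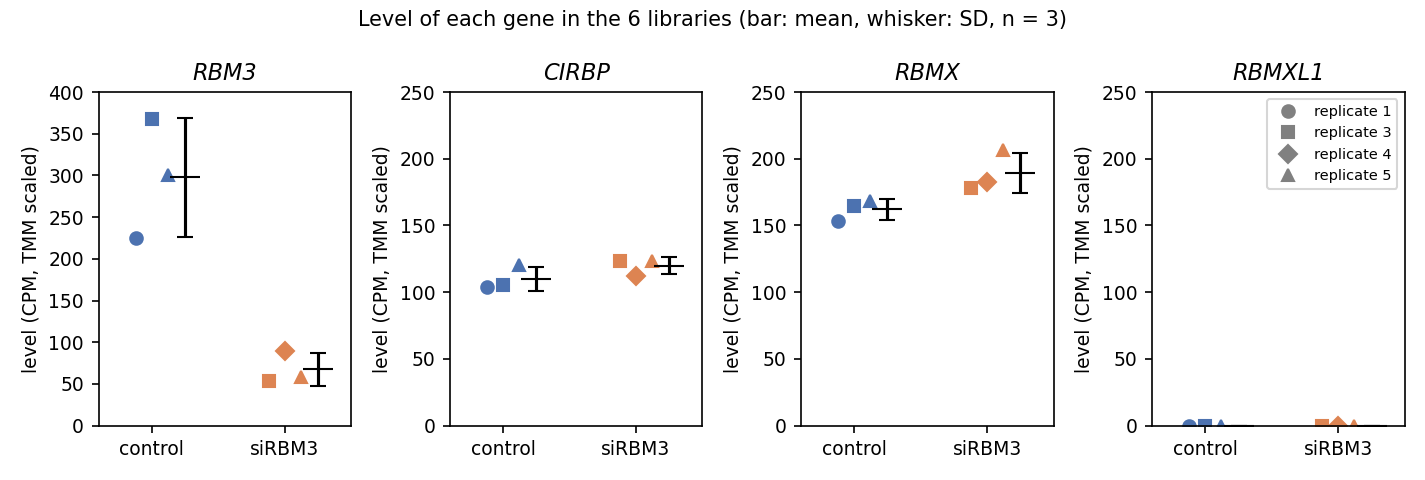
Level of RBM3, CIRBP, RBMX and RBMXL1 in CPM (TMM scaled, linear axes from 0) in the 3 control and 3 siRBM3 libraries, with symbols for the replicate numbers, bars for means and whiskers for SD. The RBM3 libraries separated, from 225.1 CPM and above in control to 90.1 CPM and below in siRBM3, while CIRBP overlapped, RBMX was slightly higher and RBMXL1 was at 0 in all 6.

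The size of the RBM3 difference was read against all other genes. In either direction, 3 of the 15099 tested genes had a larger absolute log2 fold change than RBM3. Only 1 gene had a lower log2 fold change, the long noncoding RNA ENSG00000260922, which had 50 counts over the 6 libraries. It had 0.414, 0.727 and 0.452 CPM in control against 0.0487, 0.158 and 0.0404 CPM in siRBM3. It thus passed the filter on low counts only through the control libraries, which favours a low fold change. When any 1 library was left out, the RBM3 log2 fold change lay between -2.40 and -1.96 and its unadjusted p between 1.02e-05 and 0.000143. The deepest library, siRBM3 replicate 3, had the lowest RBM3 level, and the log2 fold change without it was -2.004.

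CIRBP, the cold-inducible relative, differed little between the groups. It had 3021, 2752 and 3199 counts in the control libraries against 5061, 2846 and 3060 counts in the siRBM3 libraries. Scaled levels were 104, 105 and 120 CPM in control and 123, 112 and 123 CPM in siRBM3. The groups overlapped, because control replicate 5 lay above siRBM3 replicate 4. The means were 110 ± 9.12 CPM (SD, n = 3) and 120 ± 6.34 CPM (SD, n = 3), so that siRBM3 stood at 108.9% of control. The log2 fold change was 0.12 (standard error 0.10, 95% interval -0.10 to 0.35), with an edgeR p of 0.241 and an FDR of 0.642. The interval spans fold changes from 0.933 to 1.27. A CIRBP level that was lowered as far as RBM3, or raised by the called fold of 1.5, lies outside that interval, while any fold between the bounds lies within it. The difference was within the spread of single genes, since 9429 of the 15099 tested genes had a larger absolute log2 fold change. It was positive under every alternative run, from 0.08 with library size only to 0.19 without control replicate 5.

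RBMX was slightly higher in siRBM3 cells. It had 4448, 4306 and 4462 counts in the control libraries against 7320, 4627 and 5111 counts in the siRBM3 libraries. Scaled levels were 153, 165 and 168 CPM in control and 178, 183 and 206 CPM in siRBM3. After TMM scaling the siRBM3 libraries all lay above the control libraries, as was so for 9.98% of tested genes, but the groups overlapped when counts were scaled by library size only. The means were 162 ± 7.73 CPM (SD, n = 3) and 189 ± 14.97 CPM (SD, n = 3), or 116.7% of control. The log2 fold change was 0.22 (standard error 0.09, 95% interval 0.01 to 0.44), with an edgeR p of 0.0445 and an FDR of 0.366. RBMX was thus among the 6.56% of genes with an unadjusted p under 0.05 in the higher direction, but it did not pass the FDR. That unadjusted value did not stay under 0.05 with DESeq2 (0.0729), with library size only (0.182) or with replicate numbers as a block (0.0766). Without passing the FDR, it lay just under 0.05 with limma-voom (0.0469) and with RLE factors in edgeR (0.0475). It also did so in edgeR without a filter on low counts (0.0487) and with a mean of at least 20 counts (0.0428). It stayed there in 1 of the 6 edgeR fits with a library left out, the one without siRBM3 replicate 3 (0.0439), and reached 0.189 without siRBM3 replicate 5.

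RBMXL1 had 0 counts in every library, in control and in siRBM3 cells alike. At these depths a count of 0 allows up to 3 counts in a library, which before TMM scaling is 0.0665 CPM in siRBM3 replicate 3 and up to 0.127 CPM in siRBM3 replicate 5. These limits cover counting error only, and no fold change was computed. The 0 stood beside RBMX levels of over 150 CPM and near-identical coding sequence, so the sharing of reads between the genes was examined from the annotation. Reads were 75 bases long, and every window of that length was taken from the mRNA of each gene.

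Of the RBMXL1 windows, 93.9% occurred nowhere else in the genome and in no other annotated gene, and 3.76% were identical in RBMX. A read from most of the RBMXL1 mRNA could thus be told from RBMX, and 0 such reads were counted. In GENCODE 44, 7.06% of the RBMXL1 exon bases also belong to KYAT3, a metabolic gene on the same strand, which had 8316 counts and a log2 fold change of -0.05. Which annotation release the counting used is not stated, and whether more of RBMXL1 overlapped KYAT3 in it was not tested. Of the RBMX windows, 20.1% also occurred elsewhere in the genome or in the transcripts of a gene elsewhere. RBMXL1 held 9.08% of the RBMX windows. Reads from shared windows may have been left uncounted or assigned to either place. Adding the counts of RBMXL1 and the RBMX pseudogenes to those of RBMX gave a log2 fold change of 0.23. The added rows held at most 150 counts each (RBMXP2), against 30274 for RBMX, so the sum could hardly differ. It also cannot recover reads that were left uncounted, so the effect of read sharing on RBMX was not tested.

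**Figure D2:**
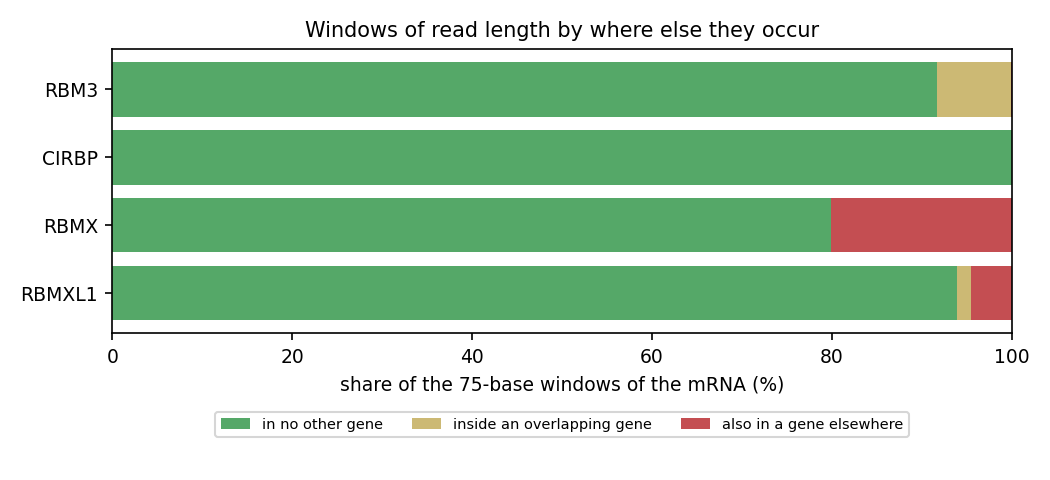
Share, in percent, of all windows of 75 bases of the mRNA of each gene by where else they occurred. The classes are nowhere else, inside an overlapping gene, and elsewhere in the genome or in a gene elsewhere in the GENCODE annotation. All CIRBP windows and 91.7% of RBM3 windows occurred nowhere else, and RBMX had the largest part shared elsewhere, 20.1%.

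The counts of RBM3 and CIRBP were nearly free of such sharing. No window of 75 bases of either mRNA occurred in the other, so reads of the target and of CIRBP could not be confused at exact match. CIRBP windows were all unique. For RBM3, 0.0947% of windows also occurred elsewhere, and 8.24% lay inside an overlapping gene model, ENSG00000279528, that had no row in the count table. The antisense models that had rows, ENSG00000204620 and ENSG00000228343, overlap 9.35% of the RBM3 exon bases together and had 65 and 12 counts, against 30073 counts for RBM3.

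Ratios within a library do not depend on how the libraries were scaled. Those of CIRBP and RBMX to RBM3 have the silenced gene as denominator. Their differences thus largely restate its lower level and are not a separate test. The log2 ratio of CIRBP to RBM3 counts was -1.11, -1.80 and -1.32 in the control libraries against 1.19, 0.32 and 1.08 in the siRBM3 libraries. RBM3 counts exceeded CIRBP counts in every control library and CIRBP counts exceeded RBM3 counts in every siRBM3 library. The mean ratio was 4.84-fold higher in siRBM3, with a log2 difference of 2.28 (exact permutation test over 20 groupings, two-sided p = 0.1, the smallest that 3 against 3 can give, adjusted p = 0.15 over 3 ratios). The ratio of RBMX to RBM3 was 5.18-fold higher, with a log2 difference of 2.37 (exact permutation test, p = 0.1, adjusted p = 0.15). The log2 ratio of RBMX to CIRBP was 0.56 ± 0.08 in control and 0.66 ± 0.11 in siRBM3 (SD, n = 3). Its groups overlapped (exact permutation test, p = 0.3, adjusted p = 0.3), so RBMX and CIRBP were not seen to move apart. Ratios with RBMXL1 could not be computed.

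**Figure D3:**
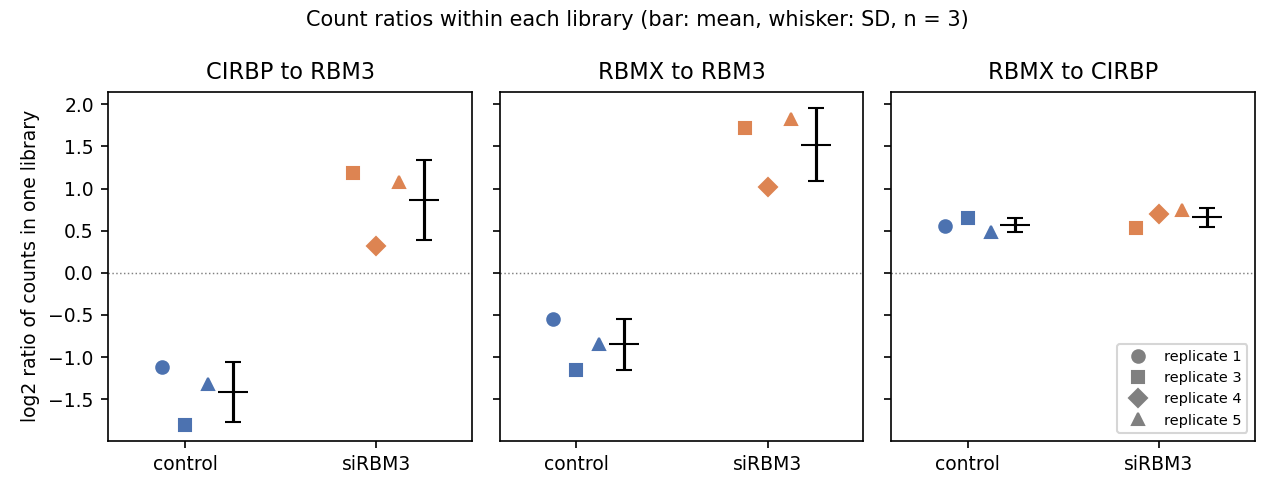
Log2 ratio of counts within each library for CIRBP to RBM3, RBMX to RBM3 and RBMX to CIRBP, with symbols for the replicate numbers, bars for means and whiskers for SD (n = 3). The ratios to RBM3 were below 0 in all 3 control libraries and above 0 in all 3 siRBM3 libraries, while the ratio of RBMX to CIRBP overlapped between the groups.

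The combined level of the cold-inducible pair followed RBM3, which it had to in part, because RBM3 made up most of it in control. RBM3 and CIRBP together had 329, 473 and 421 CPM in the control libraries against 177, 203 and 182 CPM in the siRBM3 libraries. The means were 408 ± 72.8 CPM and 187 ± 13.4 CPM (SD, n = 3), so the pair stood at 45.9% of control (difference -220 CPM, exact permutation test, two-sided p = 0.1). RBM3 made up 68.4 to 77.7% of the reads of the pair in control libraries and 30.5 to 44.5% in siRBM3 libraries. Because the 2 mRNAs differ in length, the pair was also compared in counts scaled to library size and gene length (RPKM), over all exon bases of each gene. On this scale the mean RBM3 level was 39.5 RPKM lower in siRBM3 and the mean CIRBP level 1.54 RPKM higher, which is 3.89% of the RBM3 difference. The upper bound of the CIRBP interval would be a gain of 4.69 RPKM, or 11.9% of it. With the length of the principal mRNA in place of all exon bases, these shares were 5.46% and 16.7%.

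The order of the levels per length also changed with the siRNA. In control cells, over all exon bases, RBM3 stood at 51.1 ± 12.2 RPKM, RBMX at 27.5 ± 1.31 RPKM and CIRBP at 17.3 ± 1.43 RPKM (SD, n = 3). Control RBM3 and RBMX libraries did not overlap on this scale, but they did with the length of the principal mRNA, where RBMX was at 80.5 ± 3.84 RPKM and RBM3 at 69.3 ± 16.6 RPKM, so their order in control depends on the length used. In siRBM3 cells RBMX was highest at 32.2 ± 2.55 RPKM, then CIRBP at 18.8 ± 0.995 RPKM and RBM3 lowest at 11.6 ± 3.37 RPKM, an order that was the same with either length and without overlap between neighbours. RBM3 was also the most variable of the 3 across replicates, with a coefficient of variation of 23.9% in control and 29.1% in siRBM3, against 8.30% and 5.29% for CIRBP and 4.77% and 7.92% for RBMX.

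Other genes of these families and pathways were described by the lists to which they belong. Of the RBMX family of 5, RBMX and RBMX2 were tested, RBMXL1 and RBMXL3 were at 0, and RBMXL2 was too low. RBMX2, which despite its name is a component of the spliceosome, had 36.4 ± 6.08 CPM in control and 41.8 ± 1.21 CPM in siRBM3 (SD, n = 3), with a log2 fold change of 0.20 and overlapping groups. Beyond the members and the Y-linked copies, which were not analysed here, the next proteins in sequence to RBM3 were RBMXL2, RBMXL3, HNRNPA0 and TRA2B, of which 2 were tested. For HNRNPA0, a nuclear RNA-binding protein with an RRM pair, the log2 fold change was 0.25 ± 0.10 (SE), from 130 ± 4.62 CPM to 154 ± 14.1 CPM, with an edgeR p of 0.0306 and an FDR of 0.324. TRA2B, a splicing activator that RBMX is known to bind, had a log2 fold change of 0.01. None of the tested relatives by sequence had a lower level at an unadjusted p under 0.05.

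The cold shock domain proteins, which bind RNA through a different fold, had 4 of 8 members tested and 0 with an unadjusted p under 0.05 in either direction. YBX1, the most abundant of them and a binder of cytoplasmic mRNA, had a log2 fold change of 0.21 and YBX3 one of 0.04, both with overlapping groups. The list median was 0.14, against -0.01 for all genes tested.

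Genes known to act on the splicing, transcription, modification or import of RBM3 and CIRBP had 14 of 15 members tested, 0 with an unadjusted p under 0.05 higher and 2 lower, with a list median of 0.03. PRMT1, which methylates arginines in the tail of CIRBP, stood at 224 ± 6.02 CPM in control and 183 ± 9.67 CPM in siRBM3 (SD, n = 3), with no overlap between the groups. The log2 fold change of PRMT1 was -0.30 ± 0.09 (SE), with an edgeR p of 0.00815 and an FDR of 0.219. For SRPK1, a kinase of arginine-serine proteins, the log2 fold change was -0.23 ± 0.10 (SE), at an edgeR FDR of 0.375. HNRNPH1, a regulator of RBM3 splicing, had a log2 fold change of 0.05 at 277 CPM in control, SRSF5 -0.07 and TNPO1, the import receptor for CIRBP, -0.04. The shares of 0 of 14 higher and 2 of 14 lower were read against backgrounds of 6.56% and 6.58%. Of these lists, 0 members were called by edgeR or by DESeq2. Because edgeR called 0% of all tested genes and DESeq2 1.22% of those with an adjusted p, this does not set the lists apart.

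Partners of RBMX in splicing and in the reading and writing of N6-methyladenosine had 11 of 11 members tested and 0 with an unadjusted p under 0.05, with a median log2 fold change of 0.00. The most abundant were SRSF3 at 0.00, KHDRBS1 at 0.05 and SRSF7 at -0.21, all with overlapping groups. Of 6 mRNAs that CIRBP is known to bind, all were tested and 1 had an unadjusted p under 0.05. RPA2, a subunit of the single-stranded DNA-binding protein RPA, differed by -0.32 ± 0.13 (SE) on the log2 scale, at an edgeR FDR of 0.357, from 43.96 ± 4.35 CPM to 35.3 ± 4.49 CPM. TXN, HIF1A and ATR had log2 fold changes of 0.17, -0.07 and 0.00.

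**Figure D4:**
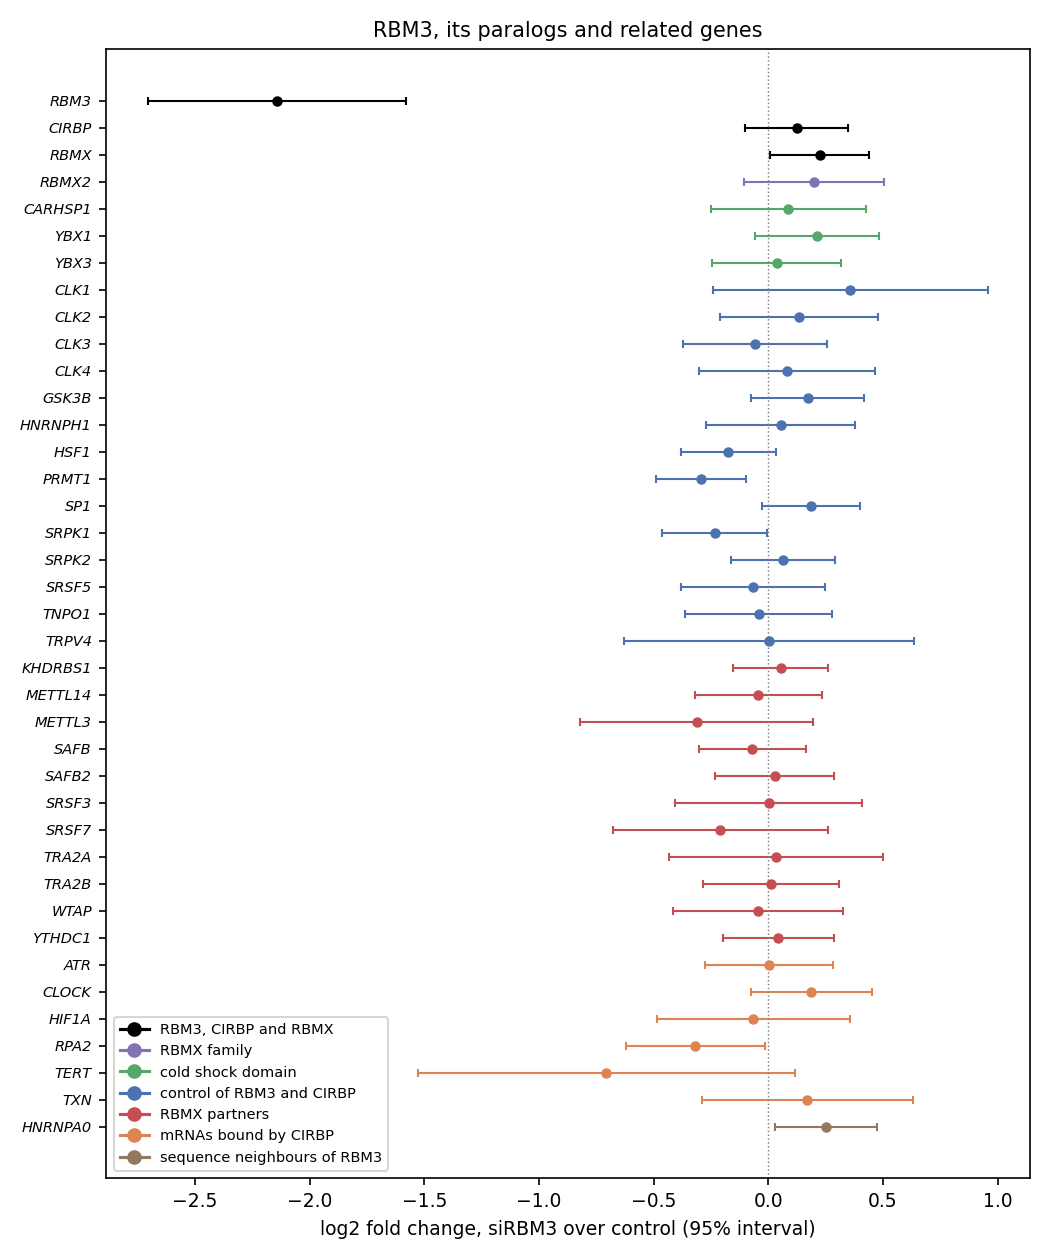
Log2 fold change of siRBM3 over control with its 95% interval from the edgeR fit, for RBM3, CIRBP and RBMX (black) and for genes of 6 lists in colour, each named at the left. RBM3 stood alone at -2.14, with its upper bound at -1.58, while CIRBP and RBMX lay at 0.12 and 0.22 among the other genes.

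The genes whose pattern over the 6 libraries was most like that of RBM3 were found by the root mean square difference of centred log2 CPM. They were ENSG00000260922 at 0.27, SCN3A at 0.40 and TMEM38B at 0.42, against a median of 1.14 over all tested genes. The choice used these same 6 libraries, so the group differences, FDR values and order of libraries given below follow in part from it. ENSG00000260922 lies on chromosome 16 from 77268774 to 77333847, and it had 0.531 ± 0.171 CPM in control and 0.0824 ± 0.0657 CPM in siRBM3 (SD, n = 3). SCN3A, a sodium channel subunit, had 53 counts in all, so both rest on very few reads. Both passed the filter on low counts only through the control libraries, so their low fold changes depend in part on the filter. TMEM38B, which encodes a cation channel of the endoplasmic reticulum, was better covered. It had 9.995, 15.03 and 11.18 CPM in the control libraries against 4.44, 6.08 and 3.71 CPM in the siRBM3 libraries. As for RBM3, the highest library in each group was control replicate 3 and siRBM3 replicate 4. The log2 fold change of TMEM38B was -1.35 ± 0.24 (SE), and the FDR was 0.0928 in edgeR and 3.25e-05 in DESeq2, which called it. The longest stretch shared with the RBM3 mRNA was 10 bases for ENSG00000260922, 15 for SCN3A and 13 for TMEM38B. Whether the siRNAs pair with these mRNAs over shorter stretches was not tested.

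For CIRBP the most alike genes were SGSH at 0.02, SPATA2 at 0.03 and PIGT at 0.03, against a median of 0.24. Their log2 fold changes were 0.13, 0.14 and 0.14, each with overlapping groups and an FDR of at least 0.579. In CIRBP and in each of these genes, control replicate 5 stood above siRBM3 replicate 4, which follows in part from the choice by likeness.

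**Figure D5:**
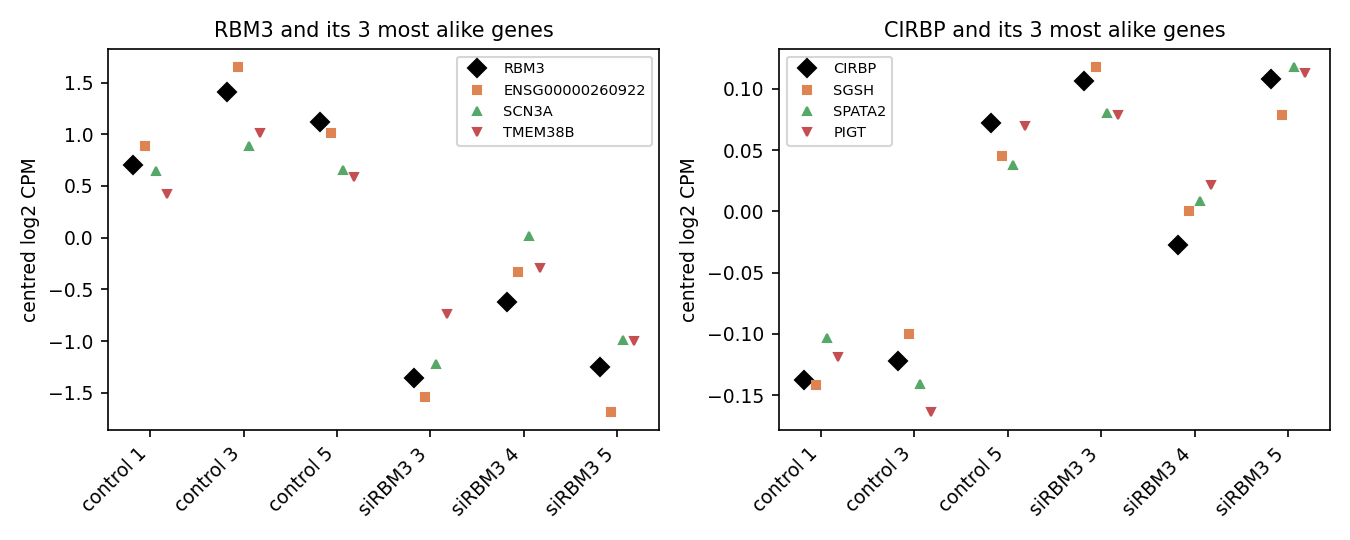
Centred log2 CPM in each of the 6 libraries for RBM3 (left) and CIRBP (right) and, for each, the 3 genes with the smallest root mean square difference to it, with vertical axes of different range. The RBM3 group splits by siRNA, while in the CIRBP group control 5 lies with the siRBM3 libraries. Both patterns follow in part from the choice of genes by likeness.

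Genes beside RBM3 and CIRBP on the chromosome were added after the data were seen. The 3 nearest tested genes on each side of RBM3, TBC1D25, EBP, PORCN, WDR13, WAS and SUV39H1, had log2 fold changes from -0.22 to 0.61, and 0 of these 6 had an unadjusted p under 0.05. Of the 6 genes beside CIRBP, 0 had an unadjusted p under 0.05, with log2 fold changes from -0.14 to 0.22.

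Totals ranged from 23603992 to 45098612 counts on genes, with siRBM3 replicate 3 the deepest and the others at 27452442 or below. The median log2 fold change of all genes was -0.01, and it was lower by 0.05 with library size only. Keratins and VIM were abundant, while CDH1, KRT5, TP63, UPK1B and UPK3A were under 1 CPM in every library. The summed level of 12 epithelial and urothelial markers was 5077 to 5882 CPM in control and 4223 to 4321 CPM in siRBM3. Of its 7 tested genes, 1 was higher and 2 were lower at an unadjusted edgeR p under 0.05, against 6.56% and 6.58% of all tested genes. GATA3 was higher (10.8 to 13.9 CPM), while KRT7 (3167 to 2441 CPM) and KRT8 (1149 to 889 CPM) were lower. The sum thus mixes genes that moved in opposite directions and is mostly keratins. The part of this in the results for RBM3, CIRBP and RBMX was not tested. The 3 mesenchymal markers summed to 2406 to 3065 and 2810 to 3083 CPM. Immune markers (4 genes) summed to at most 3.02 CPM in any library and fibroblast markers (3 genes) to at most 9.56 CPM. Of the 3 endothelial markers 2 were matched, which summed to 27.9 to 33.7 CPM in control and 33.8 to 40.8 CPM in siRBM3, nearly all from CDH5.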

How the data were processed

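RNA of T24 cells was measured in 6 libraries, 3 control and 3 siRBM3, grouped by their labels. Before deposit the authors used BBDuk for trimming, STAR for alignment to GRCh37 (hg19), Picard for marking duplicates and featureCounts for counting, and they deposited raw counts per gene. Strand setting, annotation release and use of marked duplicates: not given in the sources used here. Identifiers were matched to GENCODE 44 on GRCh37 (55665 of 63677).

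Genes were kept by filterByExpr (minimum count 10, minimum total 15) of edgeR 4.0.16 in R 4.3.3, scaled by TMM and tested by quasi-likelihood with Benjamini-Hochberg adjustment over 15099 genes. Intervals are 95% and cover the spread between libraries. DESeq2 1.42.0, limma-voom (limma 3.58.1), other scaling and filters, a replicate block and leaving out libraries were alternatives, and the fits were tested on simulated data. Single values were compared by exact two-sided permutation. Proteins were searched with blastp 2.17.0.

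The members and lists were chosen with earlier results of these data known. Genes were named from each list by an unadjusted p under 0.05 and, beside them, up to 3 by mean CPM, plus the 10 nearest proteins and the 3 genes most like RBM3 and CIRBP (log2 CPM, prior count 1). The RBMX to CIRBP ratio and the flanking genes were added after the data were seen. Replicate numbers 3 and 5 occur in both groups, with correlations of 0.514 and 0.0876 between deviations, and were not treated as pairs except in the replicate block. Some genes of the lists are not reported here.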

Additional observations from a re-analysis of the deposited data

How the results depend on the processing

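The RBM3 log2 fold change was negative under every alternative. It passed the fold and FDR thresholds with DESeq2 (-2.14), without a filter on low counts (-2.13) and with the replicate block (-2.57, FDR 2.69e-05). Replicate 1 occurs only in control and replicate 4 only in siRBM3, so fold changes with the block rest on replicates 3 and 5 alone. Those numbers are not known to mark pairs, so the block is not on a par with the other fits. The replicate block left CIRBP at 0.13 and RBMX at 0.21, neither past the FDR. The unadjusted edgeR p of RBMX was 0.0766 with this block (95% interval -0.03 to 0.44), no longer under 0.05. With 1 library left out at a time, RBM3 ranged from -2.40 to -1.96, CIRBP from 0.08 to 0.19 and RBMX from 0.16 to 0.26, and none of these passed. The number of genes called depended on the tool. It was 84 higher and 75 lower with DESeq2, 127 and 152 with edgeR without a filter, and 145 and 191 with the replicate block. It was 0 in both directions with limma-voom, RLE factors, library size only and a mean of at least 20 counts, and 0 to 1 lower with a library left out. The 1 was PLSCR1 without control replicate 1 (log2 fold change -1.43, FDR 0.00901), named after its value was seen. The cause was not tested. The CIRBP to RBM3 log2 ratio difference ranged from 2.08 to 2.55 and the summed RBM3 and CIRBP difference from -260 to -188 CPM over their alternatives. RBMXL1 gave no value under any setting, because it had 0 counts. With 3 libraries a group, the exact test cannot go below p = 0.1.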
